A study of Mus musculus with 14 samples.

Results

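The genes described are the Wnt ligands, the Frizzled receptors and the secreted Wnt antagonists, taken by name as every probe set with exactly 1 gene symbol that reads Wnt, Fzd, Sfrp or Dkk followed by a number, or Wif1. The rule found 38 genes of the 19931 named genes measured, namely 19 Wnt ligands, 10 Frizzled receptors and 9 antagonists. They were measured on 14 Affymetrix Mouse Gene 1.0 ST arrays of mouse hearts of E12.5 embryos. The reference group was Irx5+/-, with 1 mutated copy of Irx5 (3 arrays). The other genotypes were Irx3-/-;Irx5+/- (4 arrays), called Irx3-null below, Irx5-/- (3 arrays), called Irx5-null, and Irx3-/-;Irx5-/- (4 arrays), called double-null. No group was wild type, so all hearts carried at least 1 mutated Irx5 allele, and the Irx3-null hearts shared the Irx5+/- state of the reference. Irx3 and Irx5 encode homeodomain transcription factors of the Iroquois family. The comparisons ask how the loss of one or both bears on transcripts of the embryonic heart.

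Wnt proteins are secreted, lipid-modified signals that bind Frizzled receptors, which span the membrane and hold a cysteine-rich domain outside the cell. With the co-receptors Lrp5 and Lrp6 they stabilize beta-catenin, which then acts on transcription with TCF and LEF factors, and with other partners they act on cell polarity and calcium instead. Sfrp proteins carry a Frizzled-like domain and bind Wnt ligands outside the cell, Wif1 also binds the ligands, and most Dkk proteins bind Lrp5 and Lrp6. In the forming heart, Wnt signals are known to act in the outflow tract, in the endocardial cushions that become the valves, in the epicardium and in the growth of the ventricular wall.

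Values are log2 signals as deposited. A probe set's signal also depends on its probes, so signals of different genes are not ranked as transcript amounts here. The array labelled Irx3-null replicate 4 has the title and genotype of that group, but its description names Irx5-/-. Its Irx3 signal was 8.17, above the 7.87 to 7.93 of the other Irx3-null arrays and within the 8.14 to 8.25 of Irx5-null arrays, so Irx3 on it goes against its group. Counts and single-gene values of Irx3-null hearts that the results turn on are therefore also given without it, except on the second probe set of Wnt4. Irx3 was called lower in double-null hearts (-0.74 ± 0.10, SE, adjusted p = 0.0201 in limma), with 7.60 to 7.86 on the double-null arrays and 8.43 to 8.53 on the reference arrays. Over the other settings tried, its adjusted p ran from 0.00665 to 0.382. Irx3 was also lower on every Irx5-null array than in the reference, at -0.27 ± 0.10 (unadjusted p = 0.0204, adjusted p = 0.400 in limma). Irx5 lay between 8.19 and 8.41 in the reference and between 7.52 and 8.43 in double-null hearts and was not called. In Irx5-null hearts it was 7.86, 8.34 and 7.91, so replicate 2 lay inside the reference range. The Irx5 signal therefore did not separate the Irx5 genotypes. The sources used here do not place either probe set relative to the deletions. The mean of 20 sarcomere genes, which mark heart muscle cells, was 10.18 to 11.96 in the reference, with the lowest value on replicate 3, and 11.99 to 12.45 in double-null hearts, so these groups did not overlap. The mean of 18 endothelial and endocardial genes was 10.33 to 10.64 in the reference, 9.57 to 9.87 in Irx5-null and 9.27 to 10.22 in double-null hearts, below the reference on every one of those arrays. The means of 13 epicardial genes (8.16 to 10.02 over all arrays), 10 smooth muscle genes (9.21 to 9.96), 8 erythroid genes (7.36 to 8.80), 10 macrophage genes (7.10 to 7.86), 8 neural crest and nerve genes (7.34 to 7.98) and 12 lung, foregut and liver genes (6.97 to 7.36) overlapped between double-null and reference hearts. The erythroid list did not overlap between Irx3-null (7.67 to 8.51) and reference hearts (7.57 to 7.62), and its part in the Irx3-null results was not tested. On the array labelled Irx3-null replicate 4 the erythroid mean was 8.40, above the 7.36 to 7.57 of Irx5-null arrays. Its endothelial mean, 10.53, lay above Irx5-null arrays and above the 10.08 to 10.29 of the other Irx3-null arrays. Unlike Irx3, these lists set that array apart from Irx5-null hearts. Its Irx5 signal, 8.32, lay within the 7.86 to 8.34 of Irx5-null arrays. Since no label ties the arrays to separate embryos, p-values cover only the spread among these samples, which may be technical. In whole hearts, fewer cells of a type and less RNA per cell cannot be told apart.

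No member passed the threshold in any comparison. In limma, 0 of 38 had an adjusted p under 0.05 in each of the 6 comparisons, and 0 in the test for any difference among the 4 genotypes, where the smallest adjusted p was 0.468. Over all genes that share was 0.0201% for double-null against reference hearts, 0.00502% for double-null against Irx3-null hearts, 0.00502% for any difference, and 0.0% in the other comparisons. The smallest adjusted p among members was 0.200, for Sfrp2 in double-null against reference hearts.

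Counts at an unadjusted p under 0.05 were set beside the share of all genes. In Irx3-null against reference hearts 0 of 38 members reached it, where 5.07% of all genes did, and without replicate 4 the count was again 0 (4.55% of all genes). In Irx5-null against reference hearts 4 members did (10.5%, against 10.6% of all genes), 1 higher and 3 lower (5.99% and 4.66% of all genes). In double-null against reference hearts 4 members did (10.5%, against 13.5%), all lower (5.56% of all genes). These comparisons share the same reference arrays, so likeness between them is not a separate result. In double-null against Irx3-null hearts 2 members did, both lower (5.26%, against 7.67%, with 3.61% lower), and 2 without replicate 4 (6.56% of all genes). In double-null against Irx5-null hearts 3 did (7.89%, against 3.63%), 1 higher and 2 lower (1.5% and 2.13% of all genes). For the interaction (double-null minus Irx5-null, less Irx3-null minus reference) 2 did, 1 above and 1 below 0 (5.26%, against 4.04%, with 1.89% above and 2.16% below), and 1 without replicate 4 (3.54% of all genes). For any difference among the genotypes 3 members did (7.89%, against 9.32%), Wnt4, Sfrp2 and Dkk3, and without the array labelled Irx3-null replicate 4 the count was 3 (8.11% of all genes). The count for double-null against reference hearts was 1 without double-null replicate 2 and 7 without Irx5-null replicate 2, where 12.1% and 14.4% of all genes reached it. The count for double-null against Irx5-null hearts was 8 without Irx5-null replicate 2, where 6.97% of all genes reached it.

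Differences of the members against the reference lay below 0 more often than above, by small amounts. In double-null hearts 31 of 38 lay below 0 (81.6%, against 56.1% of all genes), with a median log2 difference of -0.09 (all genes, -0.03). In Irx5-null hearts 26 of 38 did (68.4%, against 55.6%), with a median of -0.11 (all genes, -0.03). In Irx3-null hearts 22 of 38 did (57.9%, against 9958 of all 19931 genes), with a median of -0.01, and without the array labelled replicate 4 it was 20 of 38 (52.6%, against 51.2%). Members are not independent of each other, and no test of these shares was made. By role, the numbers below 0 in double-null and Irx5-null hearts were 17 and 16 of 19 ligands, 7 and 5 of 10 receptors, and 7 and 5 of 9 antagonists.

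**Figure D1:**
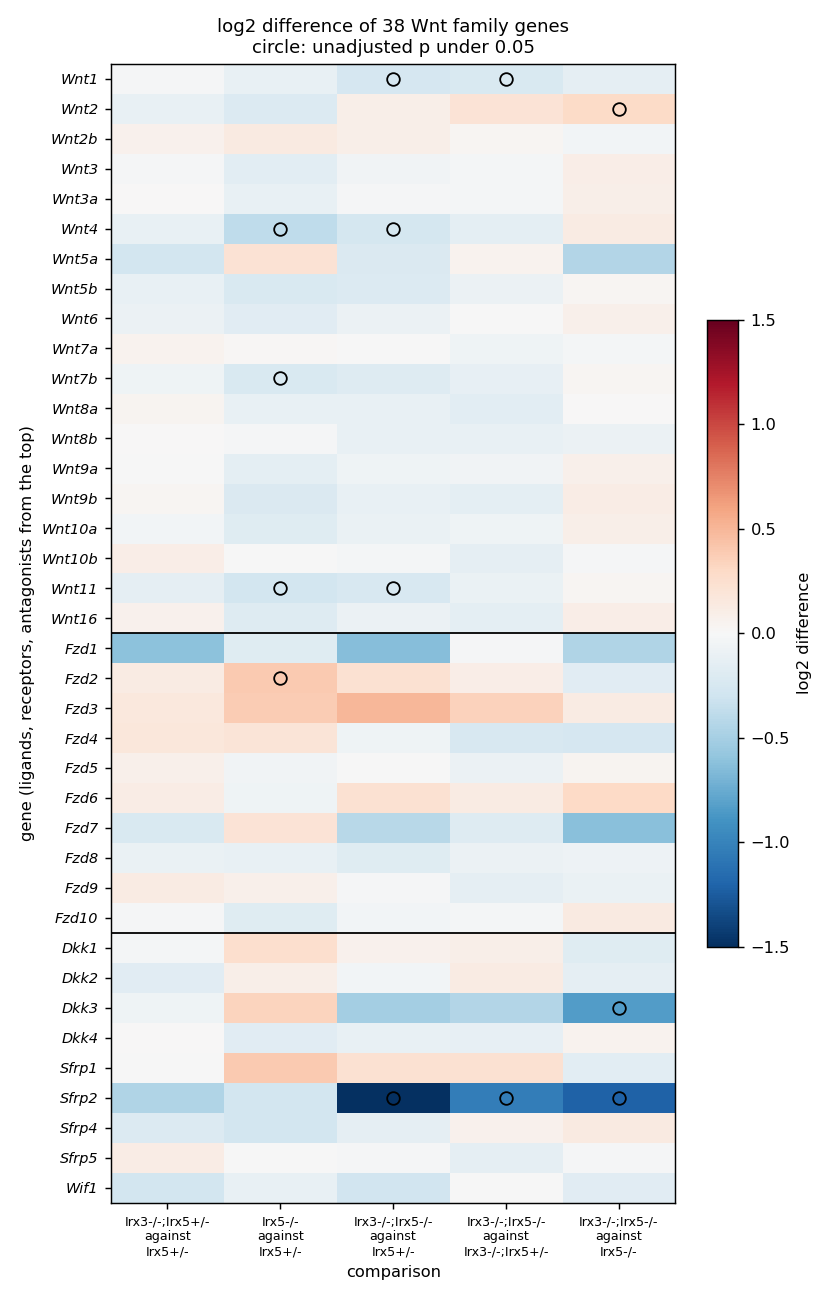
Log2 difference of each of the 38 genes (rows: ligands, receptors, antagonists) in 5 comparisons of genotypes (columns), with blue for lower and red for higher in the group named first and circles at an unadjusted p under 0.05. Sfrp2 has the darkest cells, at -1.49, -1.04 and -1.21 in the 3 comparisons of double-null hearts, and none of the cells passed the adjusted threshold.

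The spread within genotypes differed between the roles. The residual SD, the spread left after the group means, had a median of 0.13 over the 19 ligands, 0.27 over the 10 receptors and 0.22 over the 9 antagonists, beside 0.19 over all genes. Sfrp2 had the widest of the members, 0.70, and Wnt10b the narrowest, 0.09. Smaller differences could therefore reach a small unadjusted p among ligands than among receptors.

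The upstream sequences of 4 members are shown, Sfrp2, Wnt4 and Wnt11 because their differences against the reference lead the results, and Wif1 because it is the member with the Iroquois motif. RefSeq (assembly GRCm38.p6) gave start sites for 26 of the 38 genes, and the 250 bases before each of their 29 start sites were searched on both strands. The searched letters were ACANNTGT, the motif that Iroquois factors bind, where N is any base, CTTTGAT and CTTTGTT, forms of the TCF/LEF motif, and CCGCCC, a GC box. ACANNTGT was found in 1 of 26 member genes, and in 6.31% of 32851 promoters of the genome. CTTTGAT was found in 2 of 26, Wnt11 and Wnt5b (3.21% of all promoters), and CTTTGTT in 2 of 26, Dkk1 and Fzd7 (5.03%). The GC box was found in 20 of 26 member genes, or 21 of 29 member promoters, and in 32.7% of all promoters. The median GC content of the member promoters was 68.0%, beside 52.4% over all, and the part of this composition in the GC box counts was not tested. Capitals mark these motifs on either strand, and GC boxes that overlap or adjoin run together. The regions are chr3:83766071-83766320 for Sfrp2, chr4:137277385-137277634 for Wnt4, chr7:98834862-98835111 for Wnt11 and chr10:121033754-121034003 for Wif1, all on the plus strand and written 5′ to 3′ up to the base before the start site.
Sfrp2: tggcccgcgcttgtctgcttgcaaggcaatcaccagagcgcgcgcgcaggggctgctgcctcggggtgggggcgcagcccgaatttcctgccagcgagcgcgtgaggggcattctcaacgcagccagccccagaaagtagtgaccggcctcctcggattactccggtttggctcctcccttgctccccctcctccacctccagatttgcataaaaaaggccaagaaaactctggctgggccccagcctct
Wnt4: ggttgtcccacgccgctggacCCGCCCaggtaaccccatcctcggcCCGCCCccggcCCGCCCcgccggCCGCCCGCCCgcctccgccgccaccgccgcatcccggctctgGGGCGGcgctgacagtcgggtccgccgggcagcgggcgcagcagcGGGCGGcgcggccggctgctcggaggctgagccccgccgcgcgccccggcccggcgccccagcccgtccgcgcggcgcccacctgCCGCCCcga
Wnt11: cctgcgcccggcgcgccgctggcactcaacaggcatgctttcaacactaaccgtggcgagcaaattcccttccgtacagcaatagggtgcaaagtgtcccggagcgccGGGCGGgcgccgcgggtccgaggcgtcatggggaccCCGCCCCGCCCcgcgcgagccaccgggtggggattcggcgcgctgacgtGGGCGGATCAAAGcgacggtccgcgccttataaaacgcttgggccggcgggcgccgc
Wif1: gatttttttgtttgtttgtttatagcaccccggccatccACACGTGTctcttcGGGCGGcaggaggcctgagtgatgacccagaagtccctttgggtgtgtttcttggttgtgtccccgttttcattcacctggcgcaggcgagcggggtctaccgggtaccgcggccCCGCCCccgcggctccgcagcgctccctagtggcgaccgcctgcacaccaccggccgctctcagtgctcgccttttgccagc
The Sfrp2 sequence holds none of the motifs. The Wnt4 sequence holds 8 GC boxes. In the Wnt11 sequence a GC box at positions -57 to -52 from the start site adjoins a TCF/LEF motif at -51 to -45. The second Wnt11 start site in RefSeq (chr7:98838595-98838844) holds none of the motifs and is not printed. The Wif1 sequence holds the Iroquois motif at -211 to -204. A match describes letters, and no binding was measured in these samples.

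Wnt4, a ligand that acts in kidney and gonad formation among other organs, had the smallest unadjusted p of the ligands. Its signal was 9.78, 9.53 and 9.55 in the reference, 9.46, 9.61, 9.41 and 9.56 in Irx3-null, 9.06, 9.20 and 9.45 in Irx5-null, and 9.37, 9.35, 9.46 and 9.25 in double-null hearts. Both groups without Irx5 lay below every reference array, while Irx3-null arrays overlapped the reference. The log2 difference against the reference was -0.38 ± 0.12 (SE) in Irx5-null hearts (unadjusted p = 0.00536, adjusted p = 0.332) and -0.26 ± 0.11 in double-null hearts (unadjusted p = 0.0304, adjusted p = 0.317). Wnt4 is the member with more than 1 probe set, and the dimmer one differed from the brighter. On the dimmer probe set the difference was -0.22 ± 0.10 in Irx5-null hearts (unadjusted p = 0.0581). In Irx3-null hearts it was -0.18 ± 0.10 (unadjusted p = 0.0876), beside -0.11 on the brighter probe set, or -0.13 there without replicate 4. On the dimmer probe set Irx3-null arrays, replicate 4 included, ran from 7.19 to 7.58 and overlapped the reference, at 7.46 to 7.55. The interaction on the dimmer probe set was 0.38 ± 0.14 (unadjusted p = 0.0175). This probe set was not fitted without the array labelled Irx3-null replicate 4. In double-null hearts the dimmer probe set was at -0.02 ± 0.10. In double-null hearts the 2 probe sets of Wnt4 therefore differed in size of difference. The endothelial list is lower in the same groups. With the array's endothelial list mean as a term in the fit, the Irx5-null difference of Wnt4 was -0.38 ± 0.16 (unadjusted p = 0.0388) and the double-null difference -0.26 ± 0.17 (unadjusted p = 0.146).

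Wnt11, a ligand of the polarity branch that is known for its part in outflow tract formation, was 8.02, 8.23 and 8.11 in the reference, 7.86, 8.06, 7.86 and 8.16 in Irx3-null, 7.82, 7.82 and 7.91 in Irx5-null, and 8.02, 7.86, 7.87 and 7.78 in double-null hearts. Irx5-null and double-null arrays lay below all reference arrays, although double-null replicate 1 was equal to the lowest reference array after rounding. The differences were -0.27 ± 0.11 (SE, unadjusted p = 0.0253, adjusted p = 0.416) and -0.24 ± 0.10 (unadjusted p = 0.0338, adjusted p = 0.326). With the endothelial term they were -0.16 and -0.11, with unadjusted p-values of 0.303 and 0.456.

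Wnt1, a ligand of the early midbrain and neural crest, was 6.50, 6.65 and 6.48 in the reference, 6.46, 6.62, 6.44 and 6.57 in Irx3-null, 6.45, 6.46 and 6.37 in Irx5-null, and 6.36, 6.12, 6.55 and 6.15 in double-null hearts. This signal lay below the lower quartile of all genes on every array (6.87 to 7.08), so Wnt1 was near the floor. Double-null replicates 2 and 4 were the lowest arrays, and replicate 3 lay inside the reference range. Replicates 2 and 4 also had the lowest quartiles of the double-null arrays, 6.90 and 6.87. The double-null difference was -0.25 ± 0.11 (SE) from the reference (unadjusted p = 0.0391, adjusted p = 0.342) and -0.23 ± 0.10 from Irx3-null hearts (unadjusted p = 0.0413, adjusted p = 0.624). Without the array labelled Irx3-null replicate 4 the latter was -0.21 (unadjusted p = 0.0866).

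Wnt7b, a ligand best known from lung and kidney, was 7.77, 7.67 and 7.66 in the reference, 7.59, 7.82, 7.55 and 7.58 in Irx3-null, 7.43, 7.40 and 7.59 in Irx5-null, and 7.59, 7.39, 7.62 and 7.42 in double-null hearts. Both groups without Irx5 lay below the reference arrays. The difference was -0.23 ± 0.11 (SE, unadjusted p = 0.0491, adjusted p = 0.465) in Irx5-null and -0.19 ± 0.10 (unadjusted p = 0.0707) in double-null hearts.

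Wnt2, known from the early heart field and the lung, ran the other way. It was 7.42, 7.80 and 7.51 in the reference, 7.28, 7.62, 7.44 and 7.53 in Irx3-null, 7.23, 7.68 and 7.22 in Irx5-null, and 7.62, 7.68, 7.74 and 7.63 in double-null hearts. The double-null arrays lay close together and just above all Irx3-null arrays, but inside the reference range. Their difference from Irx5-null hearts was 0.29 ± 0.13 (SE, unadjusted p = 0.0439, adjusted p = 1.00) and rested on Irx5-null replicates 1 and 3, since replicate 2 matched the double-null arrays. Without replicate 2 it was 0.45. The interaction of Wnt2 was 0.40 ± 0.19 (unadjusted p = 0.0492, adjusted p = 1.00), and 0.42 without the array labelled Irx3-null replicate 4 (unadjusted p = 0.0559).

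**Figure D2:**
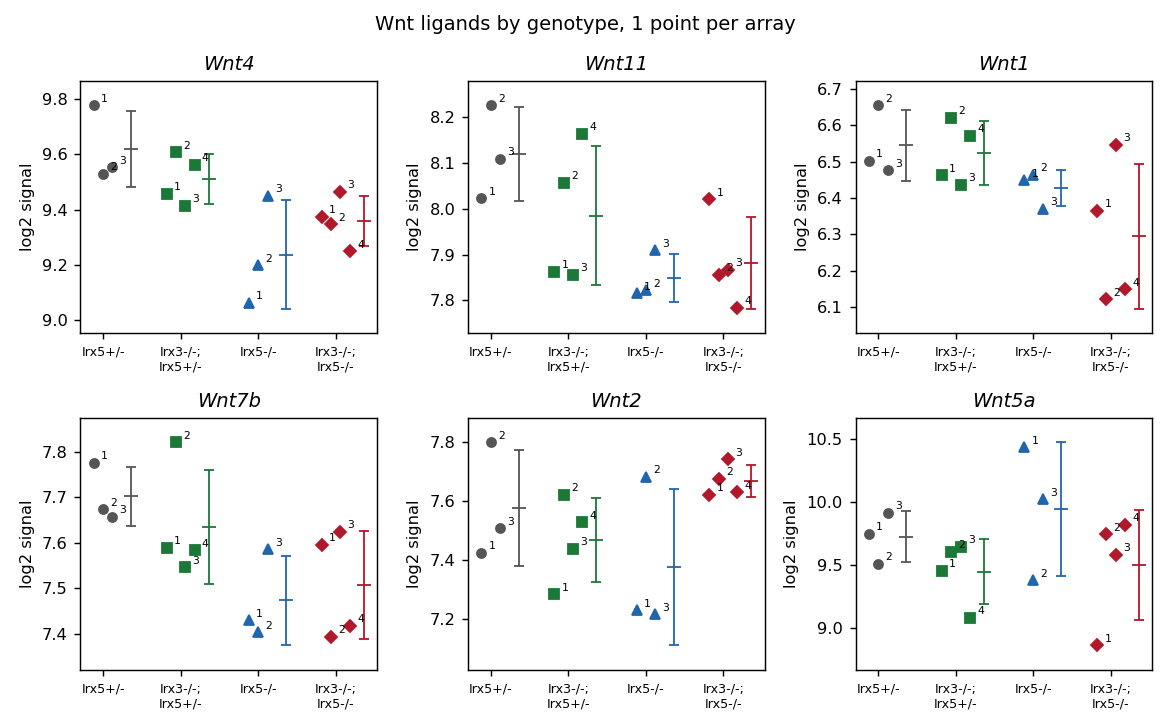
Log2 signal (vertical axis) of 6 Wnt ligands in the 4 genotypes (horizontal axis), with 1 point per array numbered by replicate and the group mean ± SD as a bar beside it. Wnt4, Wnt11 and Wnt7b of Irx5-null and double-null hearts lie below all 3 reference arrays by 0.38 or less on average, and Wnt2 of double-null hearts lies between 7.62 and 7.74.

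Wnt5a and Wnt5b, both ligands of the polarity branch, had high signals and no difference past the spread. Wnt5a was 9.75, 9.51 and 9.92 in the reference, 9.46, 9.61, 9.65 and 9.08 in Irx3-null, 10.43, 9.38 and 10.02 in Irx5-null, and 8.87, 9.75, 9.58 and 9.82 in double-null hearts. The Irx5-null arrays held both the highest value and 1 of the low ones, and all groups overlapped. Its double-null difference was -0.22 ± 0.26 (SE, 95% interval -0.77 to 0.33), and -0.01 without double-null replicate 1. Wnt5b was 8.71, 9.13 and 9.24 in the reference, 8.77, 8.96, 9.10 and 8.83 in Irx3-null, 8.88, 8.57 and 8.96 in Irx5-null, and 9.12, 8.79, 8.72 and 8.69 in double-null hearts. All groups overlapped here too, with a double-null difference of -0.20 ± 0.15 (95% interval -0.53 to 0.13).

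Other ligands without overlap with the reference in Irx5-null hearts were Wnt1 (-0.12), Wnt8a (-0.11), Wnt9b (-0.22) and Wnt10a (-0.19), each lower, which with Wnt4, Wnt7b and Wnt11 made 7 members, all ligands. No overlap on the lower side held for 9.52% of all genes in this comparison. In double-null hearts 5 members lay wholly below the reference, Wnt4, Wnt7b, Wnt11, Sfrp2 and Wif1, beside 5.58% of all genes. In Irx3-null hearts Wif1 and Wnt6 did, with or without replicate 4 (2.87% of all genes, or 4.76% without it). In double-null against Irx3-null hearts 1 member did not overlap, Wnt2, which was higher (2.64% of all genes). Its lowest double-null array and its highest Irx3-null array were equal after rounding, at 7.62. Without replicate 4 Dkk1 was also higher (4.25%) and Dkk3 lower (3.24%). Wnt2b, a ligand of liver and lung formation among others, had the widest range of the dim ligands, from 7.50 on double-null replicate 4 to 8.63 on double-null replicate 1. Wnt3, Wnt3a, Wnt7a, Wnt8b, Wnt9a, Wnt10b and Wnt16 had log2 differences against the reference between -0.19 and 0.10 in the 3 mutant groups, and none reached an unadjusted p of 0.05.

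The ligands' small differences lay beside a shift in the low end of the arrays. Of the 38 members, 21 had a mean signal below that of the median gene, 8.07, and 13 of these were ligands. The lower quartile of all genes was 6.97 to 7.05 on reference arrays, 6.97 to 7.08 on Irx3-null, 6.89 to 7.01 on Irx5-null and 6.87 to 7.04 on double-null arrays. The mean of the 21 members was 7.39 to 7.48, 7.37 to 7.46, 7.27 to 7.39 and 7.23 to 7.43 in the same order, so arrays with a low quartile also had low means of these members. The part of this shift in the single differences was not tested beyond the fit that follows. With each array's lower quartile as a term in the fit, chosen after seeing the data, the number of members at an unadjusted p under 0.05 went from 4 to 1 in Irx5-null hearts (7.53% of all genes) and from 4 to 1 in double-null hearts (11.6%), each against the reference. Under this term Wnt4 of Irx5-null hearts was at -0.30 ± 0.11 (unadjusted p = 0.0198), Wnt11 at -0.18 (unadjusted p = 0.0856) and Wnt7b at -0.13 (unadjusted p = 0.170). Fzd2 hardly moved, at 0.38, but its SE was wider, at 0.21 (unadjusted p = 0.0899). In double-null hearts Sfrp2 was at -1.51 ± 0.53 (unadjusted p = 0.0152), while Wnt4 was at -0.19 (unadjusted p = 0.0892), Wnt11 at -0.16 (unadjusted p = 0.0945) and Wnt1 at -0.15 (unadjusted p = 0.119).

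**Figure D3:**
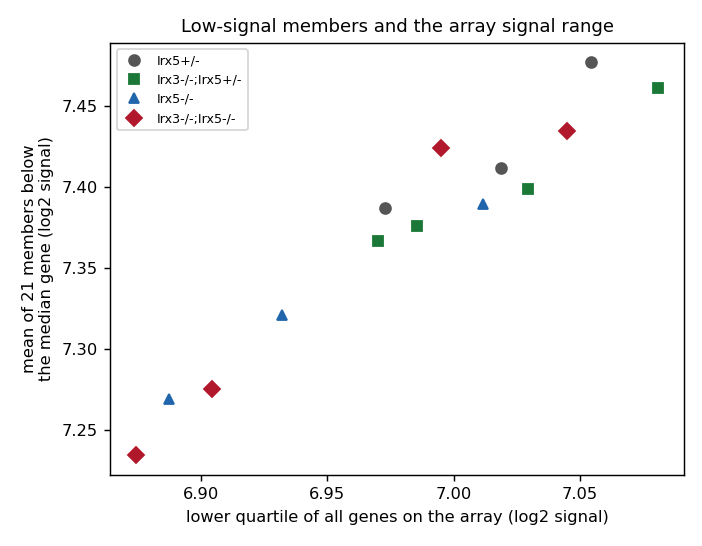
Mean log2 signal of the 21 members below the median gene (vertical axis) against the lower quartile of all genes on the same array (horizontal axis), 1 point per array with a marker per genotype. Points of all 4 genotypes follow one rising band, and Irx5-null and double-null arrays hold the lowest 4 places on both axes.

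Among the Frizzled receptors, Fzd2 had the only unadjusted p under 0.05. It was 9.29, 9.44 and 10.06 in the reference, 9.64, 9.85, 9.89 and 9.52 in Irx3-null, 10.08, 9.78 and 10.11 in Irx5-null, and 9.63, 10.03, 9.79 and 9.85 in double-null hearts. Reference replicates 1 and 2 were the lowest arrays, and reference replicate 3, the array with the lowest sarcomere list, matched the Irx5-null ones. The Irx5-null difference was 0.39 ± 0.18 (SE, unadjusted p = 0.0491, adjusted p = 0.465), 0.62 without reference replicate 3 and 0.24 without reference replicate 1. With the sarcomere list mean as a term it was 0.70 ± 0.14 (unadjusted p = 0.0003, adjusted p = 0.248). With the endothelial list, which is lower in Irx5-null hearts, it was 0.31 ± 0.26 (unadjusted p = 0.244), and with the cushion mesenchyme list 0.32 ± 0.15 (unadjusted p = 0.0525).

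Fzd1 had a lower mean than the reference (10.71) in every mutant group, at 10.09 in Irx3-null, 10.53 in Irx5-null and 10.07 in double-null hearts. It was 10.76, 10.31 and 11.06 in the reference, 9.71, 10.32, 10.73 and 9.60 in Irx3-null, 10.85, 9.88 and 10.85 in Irx5-null, and 9.75, 10.25, 9.98 and 10.31 in double-null hearts. Only double-null replicate 4 reached the lowest reference value, while Irx3-null arrays spread from below to inside the reference range. The differences from the reference were -0.62 ± 0.30 (SE, unadjusted p = 0.0583) in Irx3-null hearts and -0.63 ± 0.30 (unadjusted p = 0.0527, adjusted p = 0.378) in double-null hearts. Without the array labelled Irx3-null replicate 4 the former was -0.45 ± 0.31 (unadjusted p = 0.162).

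Fzd7, which is known for a part in early heart muscle and stem cell signalling, was 10.05, 10.29 and 10.76 in the reference, 9.37, 10.30, 10.78 and 10.07 in Irx3-null, 11.12, 9.72 and 10.87 in Irx5-null, and 9.92, 10.16, 9.56 and 10.13 in double-null hearts. The groups overlapped, and Irx5-null replicate 2 lay far below the rest of its group. Its difference was -0.42 ± 0.34 (SE, 95% interval -1.16 to 0.32) in double-null against reference hearts and -0.62 ± 0.34 (unadjusted p = 0.0922) against Irx5-null hearts.

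The other receptors stayed at unadjusted p-values above 0.05 in all comparisons. Fzd3, a polarity receptor of axon guidance, had the largest positive difference of the members in double-null hearts, 0.50 ± 0.26 (SE, unadjusted p = 0.0744, adjusted p = 0.427). Reference replicate 1 lay apart at 8.05, and the arrays of the other groups lay between 8.90 and 9.76. Without it the Fzd3 difference was 0.081 ± 0.172. Fzd4, a receptor of vessel growth, was 8.94, 9.08 and 9.29 in the reference and 9.38, 9.19, 8.43 and 9.15 in double-null hearts, a difference of -0.07 ± 0.21. The Fzd4 difference was 0.14 without double-null replicate 3 and 0.027 without reference replicate 3. Fzd5, Fzd6, Fzd8, Fzd9 and Fzd10 had differences from the reference between -0.18 and 0.23.

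Sfrp2 had the largest difference of the 38 genes. This antagonist is a secreted Frizzled-related protein of mesenchyme. It was 11.96, 11.95 and 12.22 in the reference, 11.13, 11.69, 12.26 and 11.27 in Irx3-null, 12.22, 11.04 and 12.03 in Irx5-null, and 9.19, 10.29, 11.46 and 11.27 in double-null hearts. All 4 double-null arrays lay below all reference arrays, with replicate 1 far down, but replicates 3 and 4 lay within the range of both single-null groups. Means were 12.04 ± 0.15 (SD, n = 3), 11.59 ± 0.51 (n = 4), 11.76 ± 0.63 (n = 3) and 10.55 ± 1.04 (n = 4), and the double-null mean had the widest spread.

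The double-null difference of Sfrp2 from the reference was -1.49 ± 0.46 (SE, 95% interval -2.49 to -0.49), which is 2.81-fold lower (unadjusted p = 0.00651, adjusted p = 0.200 in limma). It was -1.04 without double-null replicate 1 and -1.80 without double-null replicate 3. Against Irx3-null hearts it was -1.04 ± 0.43 (unadjusted p = 0.0306, adjusted p = 0.618), -1.14 without the array labelled Irx3-null replicate 4 and -0.58 without double-null replicate 1. Against Irx5-null hearts it was -1.21 ± 0.46 (unadjusted p = 0.0211, adjusted p = 1.00), -1.58 without Irx5-null replicate 2 and -0.76 without double-null replicate 1. The single-null groups lay at -0.45 ± 0.46 and -0.28 ± 0.50 from the reference, and the interval of each included 0. The Irx3-null difference was -0.35 without the array labelled replicate 4. Double-null replicate 1 thus accounted for a large share of each difference, and all remained negative without it. Of all arrays it had the highest epicardial (10.02), neural crest (7.98) and lung, foregut and liver (7.36) list means. Its smooth muscle list mean (9.21) was the lowest of all arrays. The part of these list means in the differences was not tested.

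Dkk3, a Dkk family member whose binding to Lrp5 and Lrp6 is less clear than that of its relatives, had its highest mean in Irx5-null and its lowest in double-null hearts. It was 8.87, 8.92 and 9.52 in the reference, 9.09, 9.18, 9.21 and 8.69 in Irx3-null, 9.88, 8.87 and 9.57 in Irx5-null, and 8.07, 8.74, 8.71 and 8.89 in double-null hearts. Irx5-null replicate 2 lay beside the double-null arrays, so the groups overlapped. The double-null difference was -0.84 ± 0.25 (SE) from Irx5-null hearts (unadjusted p = 0.0053, adjusted p = 1.00) and -0.50 ± 0.25 from the reference (unadjusted p = 0.067, adjusted p = 0.413). From Irx3-null hearts it was -0.44 ± 0.23 (unadjusted p = 0.0818), and -0.56 ± 0.25 without the array labelled Irx3-null replicate 4 (unadjusted p = 0.0436). The interaction of Dkk3 was -0.78 ± 0.36 (unadjusted p = 0.0485, adjusted p = 1.00), and -0.89 ± 0.36 without that array (unadjusted p = 0.0295).

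Sfrp1, another Frizzled-related antagonist, was 10.88, 10.43 and 11.12 in the reference, 10.79, 10.69, 11.16 and 10.59 in Irx3-null, 11.18, 11.39 and 11.02 in Irx5-null, and 10.83, 10.97, 11.16 and 11.20 in double-null hearts. The groups overlapped, and its double-null difference was 0.23 ± 0.17 (SE, 95% interval -0.14 to 0.60), 0.041 without reference replicate 2 and 0.38 without reference replicate 3. With the endothelial list mean as a term it was -0.099 (unadjusted p = 0.679). Dkk1, a secreted blocker of Lrp5 and Lrp6, was 7.47, 7.68 and 7.61 in the reference, 7.54, 7.50, 7.53 and 7.68 in Irx3-null, 8.07, 7.61 and 7.83 in Irx5-null, and 7.55, 7.68, 7.71 and 7.64 in double-null hearts. Only Irx5-null replicates 1 and 3 stood above the other groups, with a difference of 0.25 ± 0.12 for that group (unadjusted p = 0.0518, adjusted p = 0.472). Wif1, the ligand-binding antagonist, was 7.77, 7.51 and 7.46 in the reference, 7.45, 7.35, 7.07 and 7.34 in Irx3-null, 7.14, 7.77 and 7.49 in Irx5-null, and 7.36, 7.27, 7.34 and 7.20 in double-null hearts. Both groups without Irx3 lay below the reference arrays, at -0.27 (unadjusted p = 0.0733, or -0.28 and 0.0922 without the array labelled Irx3-null replicate 4) and -0.28 (unadjusted p = 0.064). Dkk2, Dkk4, Sfrp4 and Sfrp5 had differences from the reference between -0.27 and 0.11.

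**Figure D4:**
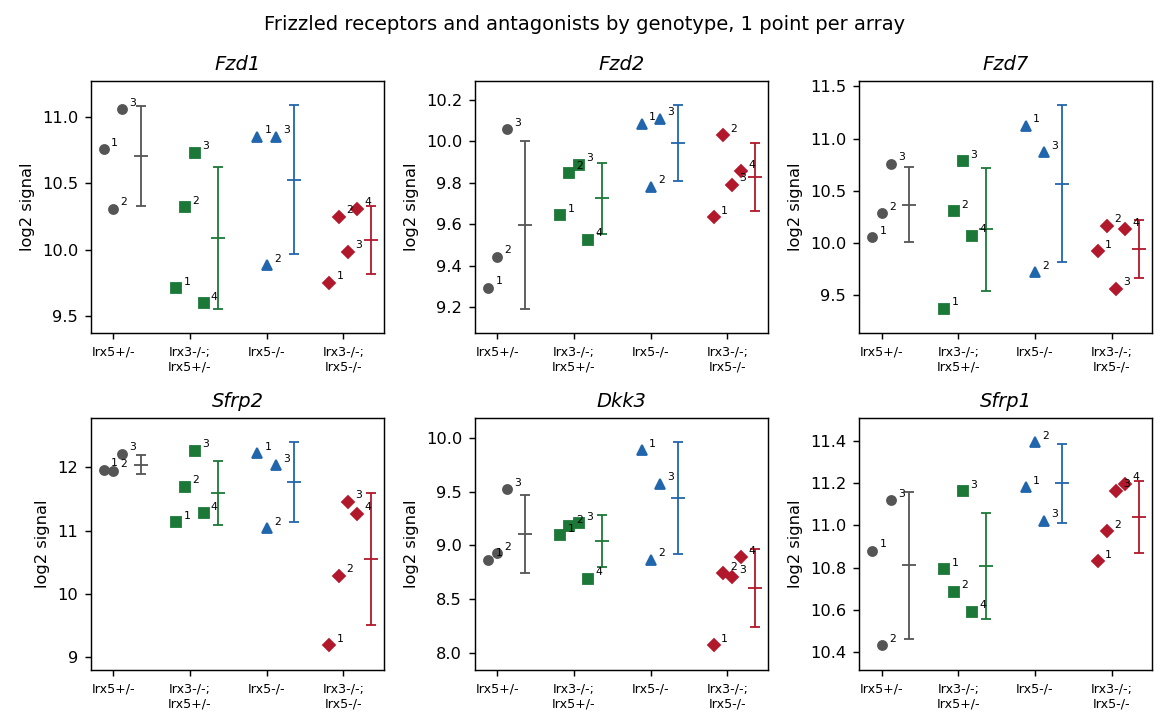
Log2 signal (vertical axis) of 3 Frizzled receptors and 3 antagonists in the 4 genotypes (horizontal axis), with 1 point per array numbered by replicate and the group mean ± SD as a bar beside it. Sfrp2 of the 4 double-null arrays runs from 9.19 to 11.46, below all reference arrays, while Fzd1, Fzd7 and Dkk3 overlap between groups.

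Sfrp2, Dkk3, Fzd1 and Fzd7 lay beside differences in tissue lists, and their part in these results was not tested. The mean of 14 cushion mesenchyme genes was 9.42 to 9.86 in the reference, 9.38 to 9.73 in Irx3-null, 9.16 to 10.12 in Irx5-null and 9.67 to 10.20 in double-null hearts. Its lowest array was Irx5-null replicate 2, where Sfrp2, Dkk3, Fzd1 and Fzd7 had the lowest values of their group. That array also had the highest sarcomere mean (12.56) and the lowest epicardial mean (8.16) of all arrays. In double-null hearts the cushion mean was lowest on replicate 3 (9.67), as was Fzd7. Sfrp2, Dkk3 and Fzd1 were lowest on replicate 1 of that group, which had a cushion mean of 9.78. With the sarcomere list as a term, the double-null differences from the reference were -1.14 ± 0.61 for Sfrp2 (SE, unadjusted p = 0.0856), -0.05 ± 0.28 for Dkk3, -0.06 ± 0.32 for Fzd1 and 0.43 ± 0.29 for Fzd7. With the cushion mesenchyme list as a term, chosen after seeing the data, they were -1.85 ± 0.43 for Sfrp2, -0.79 ± 0.17 for Dkk3, -0.996 ± 0.173 for Fzd1 and -0.84 ± 0.20 for Fzd7, with adjusted p-values of 0.0326, 0.0255, 0.0117 and 0.0371. Under that term 4 of 38 members were called, beside 3.8% of all genes, and for any difference 1 of 38 was, Dkk3, beside 0.577%. Under the sarcomere term 0 were called in double-null against reference hearts, beside 0.0%. With the endothelial list as a term Sfrp2 was at -2.74 ± 0.52 (adjusted p = 0.331). The lists themselves differ between the genotypes, so tissue content and genotype cannot be told apart.

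**Figure D5:**
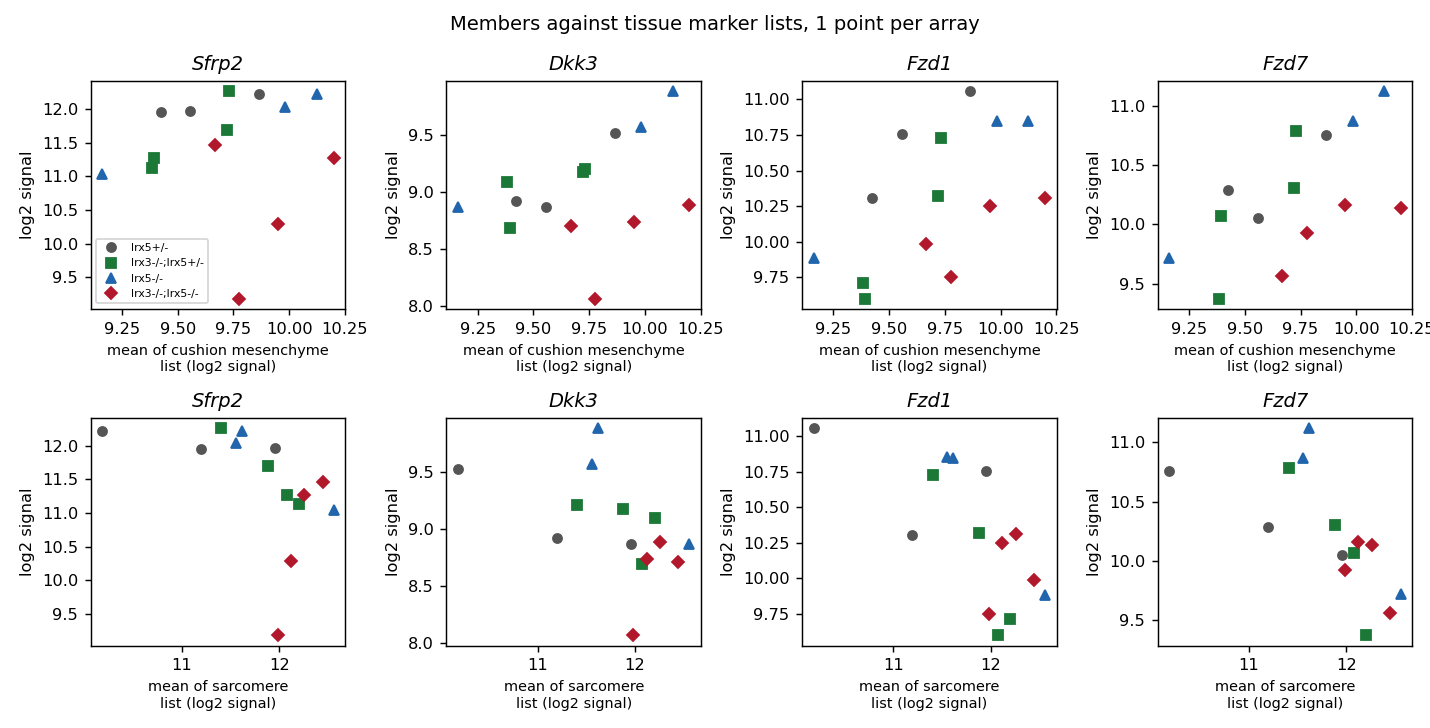
Log2 signal of Sfrp2, Dkk3, Fzd1 and Fzd7 (vertical axes) against the array's mean over the cushion mesenchyme list (top row) or the sarcomere list (bottom row), 1 point per array with a marker per genotype. Double-null arrays lie low for their cushion list mean of 9.67 to 10.20, and sit at the high end of the sarcomere axis, at 11.99 to 12.45.

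The rest of the pathway was read from 5 lists of secretion factors, co-receptors, beta-catenin branch components, beta-catenin targets and polarity genes. Of 101 listed genes 98 were measured, and 0 were called in any comparison in limma without a tissue term. In double-null against reference hearts 12 of 98 had an unadjusted p under 0.05 (12.2%, against 13.5% of all genes), 9 higher and 3 lower. Higher were 7.9% of all genes. Of the 17 beta-catenin targets measured, 13 lay above 0 and 4 below, with a median of 0.10. Of all genes 56.1% lay below 0, with a median of -0.03. At an unadjusted p under 0.05 were 4 of the targets, all higher. Of 16 co-receptor and turnover genes, 4 were, 1 higher and 3 lower, with a median of -0.11. The numbers were 1 of 17 for secretion factors, 1 of 24 for the beta-catenin branch and 2 of 24 for polarity genes, all higher.

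Ccnd1, the cell cycle activator cyclin D1 and a listed target, had the smallest p of the lists. It lay at 10.20 to 10.34 in the reference, 10.30 to 10.62 in Irx3-null, up to 10.53 in Irx5-null and 10.77 to 10.96 in double-null hearts, which stood above all other arrays. Its difference was 0.61 ± 0.13 (SE, unadjusted p = 0.000324, adjusted p = 0.111). Of the 98 pathway genes, 9 lay wholly above the reference in double-null hearts and 6 wholly below. Wholly below were 5.58% of all genes, and the share of all genes wholly above was not counted. Tnfrsf19, a receptor listed as a target, was at 0.40 ± 0.10 (adjusted p = 0.138). With the cushion mesenchyme term Ccnd1 was at 0.67 ± 0.13 (adjusted p = 0.0183) and Tnfrsf19 at 0.44 ± 0.10 (adjusted p = 0.0317), both called. Axin2, a negative regulator that is the most used readout of beta-catenin signalling, was at 0.05 ± 0.11 with overlapping groups (8.24 to 8.46 in the reference and 8.33 to 8.46 in double-null hearts). Lef1, a partner of beta-catenin, was at 0.49 ± 0.29 (unadjusted p = 0.109), with 8.11 ± 0.03 (SD) in the reference and 8.60 ± 0.51 in double-null hearts.

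Upstream, Rspo3, a secreted enhancer of Wnt signalling, was 8.57 ± 0.37 (SD) in the reference and 9.22 ± 0.05 in double-null hearts, with every double-null array above the reference, a difference of 0.66 ± 0.18 (SE, unadjusted p = 0.00334, adjusted p = 0.169). At the receptor, the co-receptors Lrp5 and Lrp6 were at -0.34 ± 0.13 (unadjusted p = 0.0239) and -0.06 ± 0.15, the ligase Rnf43, which removes Frizzled receptors, at -0.26 ± 0.10 (unadjusted p = 0.0222), and the Wnt5a receptor Ror2 at 0.30 ± 0.14 (unadjusted p = 0.047). Inside the cell, the kinase Csnk1d was at 0.32 ± 0.10 (unadjusted p = 0.00681), and beta-catenin itself, Ctnnb1, at -0.10 ± 0.10. In the polarity branch, Daam2 was at 0.66 ± 0.20 (unadjusted p = 0.00585) and Vangl1 at 0.48 ± 0.15 (unadjusted p = 0.00836). With the endothelial term, whose list is lower on every double-null array, Lrp5 was at -0.033 (unadjusted p = 0.846). With the sarcomere term Rspo3 was at 1.02, Vangl1 at 0.26 and Rnf43 at -0.17. None of these genes had an adjusted p under 0.05, with or without the tissue terms.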

How the data were processed

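RNA (1 ng) of hearts was measured on 14 arrays. The authors' deposited values are log2 signals per probe set, made with RMA in the R package affy per the submitters' processing notes. Their versions were not found in the labels or headers. The number of arrays limits the precision. Of 28763 probe sets, 21776 had 1 gene symbol, 1592 several and 5395 none. For each of 19931 genes the probe set with the highest mean was kept. The 4 genotype means were fitted together in limma 3.58.1 (R 4.3.3), tested on simulated data, with 2-sided tests, Benjamini-Hochberg adjustment over all genes and calls at an adjusted p under 0.05. Members and lists were chosen with earlier results of these data known. Described in full were the 6 members with the smallest p of the test over genotypes, up to 3 per comparison and direction at an unadjusted p under 0.05, and the 3 with the highest mean per role. Wif1, Fzd3, Fzd4 and Wnt2b were added after their values were seen. From each pathway list up to 2 genes per direction were named, besides Axin2, Lef1, Lrp6 and Ctnnb1. Among 19 pairs of arrays with the same replicate number, 4 correlated above 0.1, so numbers were not used as pairs. Beside 10 other settings, 3 were added after seeing the data, the cushion mesenchyme, endothelium and lower quartile terms.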

Additional observations from a re-analysis of the deposited data

Results flagged for a closer look

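Only groups of 4 arrays, those of Irx3-null and double-null hearts, were checked. Among these 76 groups, 3 held 1 array far from the others, all in Irx3-null hearts. Reference and Irx5-null groups, with 3 arrays, were not checked. Chance gives such an array in about 1 in 20 groups. Fzd9 was lowest on replicate 3 at 8.52, with the others at 8.61 to 8.62. Wnt2b was highest on replicate 3 at 8.33, with the others at 7.73 to 7.78. Wnt7b was highest on replicate 2 at 7.82, with the others at 7.55 to 7.59.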

How the results depend on the processing

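No member was called in any comparison under any of the 14 left-out arrays, and under the other alternatives members were called only with the cushion mesenchyme term, 4 in double-null against reference hearts and 1 for any difference. With that term, chosen after seeing the data, the genes called over all genes were 20 in Irx5-null against reference, 758 in double-null against reference (from 4), 21 against Irx3-null (from 1), 1 against Irx5-null and 115 for any difference (from 1). The counts for double-null against reference, double-null against Irx3-null and any difference were 0, 0 and 0 with the sarcomere or the endothelium term, 1, 0 and 0 with the lower quartile term, 2, 0 and 0 with the mean of a gene's probe sets, and 14, 5 and 9 with all probe sets. Double-null against reference gave 7 with array weights and 15 with only the 2 groups compared. Double-null against Irx3-null gave 0 with only its groups or with arrays centred on their medians, and double-null against Irx5-null gave 2 with trend and robust moderation. With arrays left out in turn, genes called ranged from 0 to 42 in double-null against reference (42 without Irx5-null replicate 2), from 0 to 0 against Irx3-null, from 0 to 1 against Irx5-null, from 0 to 1 in Irx5-null against reference and from 0 to 2 for any difference. The cause of these changes was not tested.

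The replicate number as a block left 0 members called in every comparison and 0 genes called in double-null against reference, double-null against Irx3-null and any difference. Same-number pairs correlated between -0.179 and 0.191, and Irx3 of double-null hearts had an adjusted p of 0.153 in that fit.

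Signs reversed in double-null against reference hearts with the sarcomere term for Lrp6 (0.19), Ctnnb1 (0.029), Wnt2 (-0.0079), Wnt5a (0.067), Wnt5b (0.18) and Fzd7 (0.43), with the endothelium term for Axin2 (-0.092), Irx5 (0.24) and Sfrp1 (-0.099), and with the cushion mesenchyme term for Axin2 (-0.036). With arrays left out in turn Lrp6 ranged from -0.15 to 0.055, and it reversed without reference replicate 3 or double-null replicate 3 (0.034) and with array weights (0.011). In the same comparison Fzd4 reversed without double-null replicate 3 (0.14) or reference replicate 3 (0.027), and Wnt2b without double-null replicate 1 (-0.14). Sfrp2 of Irx5-null hearts ranged from -0.51 to 0.082, with the reversal without Irx5-null replicate 2. The 3 or 4 arrays of a group limit the precision.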
